A study of Mus musculus with 9 samples.

Results

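Kidneys of AngII-treated mice with a floxed GRPR allele and Cre were compared with kidneys of AngII-treated mice with a floxed Tmem allele and the same Cre. The comparison took 6 of the 9 RNA-seq libraries of the study by their titles, 3 titled GRPR-AngII (genotype CDH16 Cre+/GRPRfl/fl) and 3 titled CDH16KO-AngII (genotype CDH16 Cre+/Tmemfl/fl). The other 3 libraries, titled AngII, had the genotype Tmemfl/fl without Cre. They stayed in the same fit and are given last wherever they appear. All 9 libraries came from kidneys of mice given AngII (angiotensin II, a hormone that constricts vessels and raises blood pressure), and both compared groups carried Cre under the name of Cdh16. What they do not share is the floxed allele. The effects of AngII, of Cre without a floxed allele and of the floxed GRPR allele without Cre are not analysed here. The sources used here give neither strain, sex, age, dose and duration nor whether the libraries came from separate animals, so p-values reflect the spread between libraries, which may be technical. Of 32593 genes in the table, the 12507 with at least 1 FPKM (fragments per kilobase of transcript and 1000000 fragments) in 3 or more libraries were tested. Log2 fold changes are GRPR-AngII minus CDH16KO-AngII, so a positive value means higher in GRPR-AngII.

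GRPR is the receptor for gastrin-releasing peptide, a relative of bombesin, and signals through G proteins of the Gq family to phospholipase C. The series title names STING, an adaptor of innate immunity that responds to DNA in the cytosol, and its gene Sting1 was formerly called Tmem173. The labels write only Tmem. CDH16 is a cadherin of kidney tubule epithelium, and its promoter is used to direct Cre to tubule cells, so glomerular, vascular and interstitial cells of these whole kidneys are not its targets. The proximal tubule, the most abundant tubule segment in kidney cortex, burns fatty acids. Long chains are activated to acyl-CoA, enter mitochondria through the carnitine shuttle or are shortened in peroxisomes, and are otherwise oxidised at the far end by Cyp4a enzymes. PPAR alpha, a nuclear receptor that binds fatty acids, induces many of these enzymes.

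The 9 libraries held 40731748 to 60449117 counts, of which 16.1% to 26.4% fell in genes of the mitochondrial genome. An FPKM of 1 was reached by 11456 to 12276 genes. By a chi-square of the counts, CDH16KO-AngII library 2 stood apart from the others of its group. The chi-square per gene between it and libraries 1 and 3 was 265 and 366, against 103 between libraries 1 and 3. Over the GRPR-AngII pairs it was 109 to 182, and over the AngII pairs 74.2 to 135. Genes of the mitochondrial genome entered this measure. Their share of counts was 16.1% in CDH16KO-AngII library 2, against 23.4% and 26.4% in libraries 1 and 3. Where leaving library 2 out turned the sign of a list median given here or moved it by over 1.5 times, the median without it stands beside.

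The labelled genes were examined first. Sting1 was at 2.90, 2.90 and 2.68 CPM (counts per 1000000 after scaling) in the GRPR-AngII libraries, against 2.15, 2.24 and 2.04 CPM in the CDH16KO-AngII libraries. The ranges did not overlap, and the exact two-sided permutation p was 0.1, the smallest that 3 against 3 libraries allow. The AngII libraries, at 4.62, 1.77 and 5.33 CPM, surrounded both groups. Sting1 did not reach the filter. In the fit that kept genes from an FPKM of 0.1, its log2 fold change was 0.41 (SE 0.36, edgeR adjusted p = 0.982). Cdh16 was at 526, 679.8 and 566 CPM in GRPR-AngII, against 598, 696 and 682 CPM in CDH16KO-AngII, with overlapping ranges (log2 fold change −0.16, edgeR adjusted p = 0.986). Acsl4, the acyl-CoA synthetase in the series title, averaged 16.9 ± 2.11 CPM in GRPR-AngII and 16.5 ± 3.91 CPM in CDH16KO-AngII (SD, n = 3 each; log2 fold change 0.04, edgeR adjusted p = 0.999). Grpr is not analysed here, so these values show neither deletion directly.

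At an adjusted p under 0.05 in edgeR's quasi-likelihood test, 18 of 12507 genes were called (0.144%). Of these, 7 were higher in GRPR-AngII (0.056% of genes tested) and 11 were lower (0.088%). In each of the 18 the GRPR-AngII and CDH16KO-AngII ranges did not overlap, which also held for 9.96% of all genes tested. The median log2 fold change over all genes was −0.01, and 780 genes (6.24%) had an unadjusted p under 0.05, 379 with a positive sign (3.03%) and 401 with a negative one (3.21%). Ranges did not overlap in 4.66% of genes with GRPR-AngII on top and in 5.3% with CDH16KO-AngII on top. DESeq2 called 175 genes (1.4%), 118 higher (0.943%) and 57 lower (0.456%), and its list held all 18. The number of calls depended on single libraries. Without GRPR-AngII library 1 edgeR called 0 genes, with 669 at an unadjusted p under 0.05, and the 18 then had adjusted p between 0.0502 and 0.116. Leaving out GRPR-AngII library 2 gave 6 calls, 4 of them among the 18, and leaving out GRPR-AngII library 3 gave 5, of which 2 were. Leaving out CDH16KO-AngII library 1 gave 50, with 17 of the 18. For CDH16KO-AngII library 2 the count was 24 with 14 of the 18, and for CDH16KO-AngII library 3 it was 2, both among the 18. Leaving out an AngII library gave 15 each time. None of the 18 changed direction in any of the 9 fits with a library left out.

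**Figure D1:**
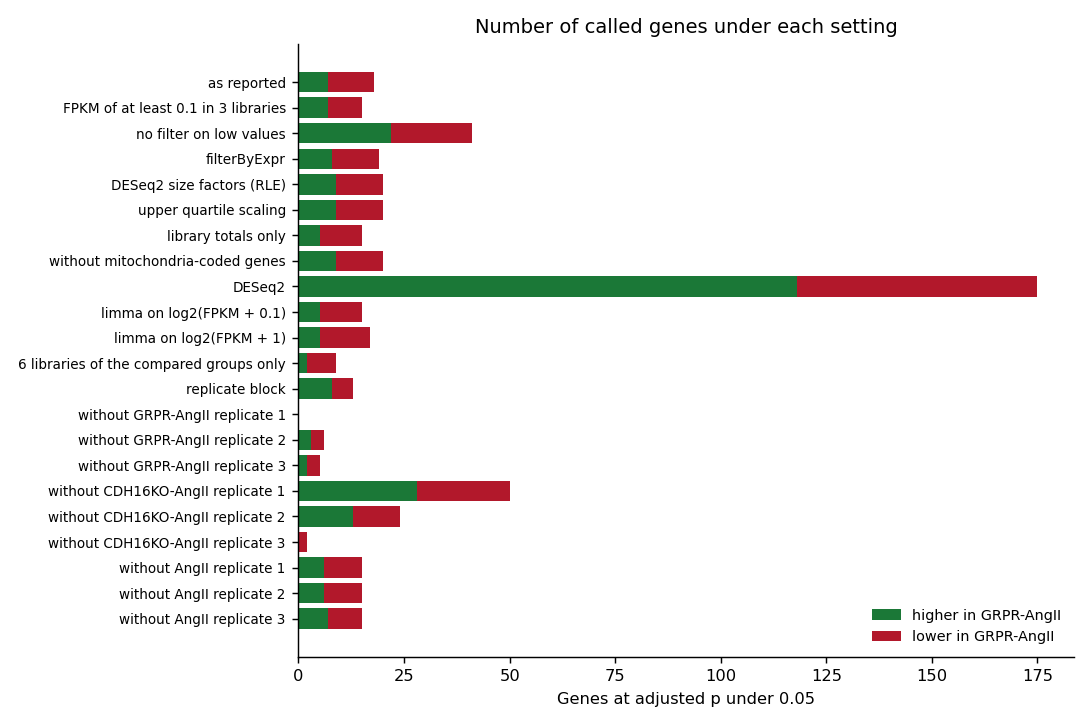
Number of genes with an adjusted p under 0.05 in the fit as reported and under 21 other settings, split into higher (green) and lower (red) in GRPR-AngII. The count is 18 as reported, 175 with DESeq2, and 0 to 50 with 1 library left out.

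Of the 7 genes higher in GRPR-AngII than in CDH16KO-AngII, Vnn1 and Acot2 act on coenzyme A and its fatty acid esters. Vnn1 (ENSMUSG00000037440, chr10:23894688-23905343 on the + strand, GRCm38) encodes vanin, a pantetheinase that breaks down coenzyme A precursors. It was at 89.1, 100.2 and 119 CPM in GRPR-AngII, against 43.4, 34.4 and 25.2 CPM in CDH16KO-AngII and 102, 84.8 and 115 CPM in AngII. Every GRPR-AngII library was above every CDH16KO-AngII library, and the log2 fold change was 1.58 (SE 0.21, edgeR adjusted p = 0.0214). Acot2 (ENSMUSG00000021226, chr12:83987861-83993873 on the + strand) encodes the mitochondrial thioesterase that releases long-chain fatty acids from coenzyme A. It was at 32.3, 38.8 and 32.7 CPM in GRPR-AngII, against 20.997, 17.9 and 17.3 CPM in CDH16KO-AngII, with no overlap (log2 fold change 0.89, SE 0.13, edgeR adjusted p = 0.0358). Acot2 shares 58.0% of its transcript with its neighbour Acot1, so counts may be split between them. The Acot2 call was kept in 1 of the 9 fits with a library left out, the one without CDH16KO-AngII library 1, and its adjusted p in the others lay between 0.0696 and 0.168.

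Fbp2, Fgf1 and Tmigd1 were higher in GRPR-AngII as well, and in these the AngII libraries lay between the compared groups. Fbp2 (ENSMUSG00000021456, chr13:62836877-62858422 on the − strand) encodes the muscle isoform of fructose bisphosphatase, an enzyme of gluconeogenesis. It was at 18.4, 16.7 and 16.5 CPM in GRPR-AngII, against 9.39, 7.43 and 6.43 CPM in CDH16KO-AngII (log2 fold change 1.15, SE 0.17, edgeR adjusted p = 0.0288). Its call, too, was kept only without CDH16KO-AngII library 1 among the 9 fits with a library left out (adjusted p 0.0604 to 0.125 in the other 8). The AngII libraries were at 14.2, 13.2 and 14.2 CPM.

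Fgf1 (ENSMUSG00000036585, chr18:38838673-38929472 on the − strand) encodes acidic fibroblast growth factor. It was at 163, 207 and 197 CPM in GRPR-AngII, against 76.5, 90.5 and 86.4 CPM in CDH16KO-AngII and 149, 131 and 120.2 CPM in AngII. Between the compared groups its log2 fold change was 1.16 (SE 0.15, edgeR adjusted p = 0.0194). Its lower coordinate lies 3.10 Mb from that of Sting1, the gene that the label of the other floxed allele may name. The AngII libraries carry that floxed allele too. Whether this position bears on the Fgf1 values was not tested. Arhgap26 and Gm5820 overlap Fgf1 on the opposite strand. The sources used here do not say whether counting used strand, so reads from the overlap cannot be told apart.

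Tmigd1 (ENSMUSG00000020839, chr11:76902159-76916587 on the + strand) encodes an immunoglobulin-domain adhesion protein of kidney and intestinal epithelium. It was at 234, 228 and 244 CPM in GRPR-AngII, against 77.3, 110.4 and 73.2 CPM in CDH16KO-AngII and 124, 135 and 141 CPM in AngII. Relative to its mean its SD within GRPR-AngII was the smallest of the 7 genes called higher, at 235 ± 7.87 CPM against 86.9 ± 20.4 CPM (SD, n = 3 each, log2 fold change 1.44, SE 0.17, edgeR adjusted p = 0.0117). It lost its call without GRPR-AngII library 1 (adjusted p = 0.0645), GRPR-AngII library 3 (0.055) or CDH16KO-AngII library 3 (0.0513). Vnn1, Fgf1, Zfp429 and 1810034E14Rik each lost theirs when any 1 of the GRPR-AngII libraries or CDH16KO-AngII library 3 was left out, with adjusted p of 0.0513 to 0.11 in those fits.

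The remaining 2 genes higher in GRPR-AngII lie on chromosome 13. Zfp429 (ENSMUSG00000078994, chr13:67387905-67399819 on the − strand) encodes a zinc finger protein. It was at 2.80, 2.73 and 3.04 CPM in GRPR-AngII, against 0.514, 0.212 and 0.277 CPM in CDH16KO-AngII, the widest ratio among the 7 (log2 fold change 3.09, SE 0.40, edgeR adjusted p = 0.0194). The long non-coding gene 1810034E14Rik (chr13:64248700-64271852 on the + strand) is annotated as antisense and overlaps Cdc14b on the opposite strand. Gm47004 overlaps it on the same strand, so reads from these overlaps cannot be told apart. The level of 1810034E14Rik was 10.3, 10.2 and 13.2 CPM in GRPR-AngII, against 2.63, 3.30 and 4.21 CPM in CDH16KO-AngII (log2 fold change 1.73, SE 0.22, edgeR adjusted p = 0.0194). In both Zfp429 and 1810034E14Rik the AngII range overlapped that of GRPR-AngII and not that of CDH16KO-AngII.

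**Figure D2:**
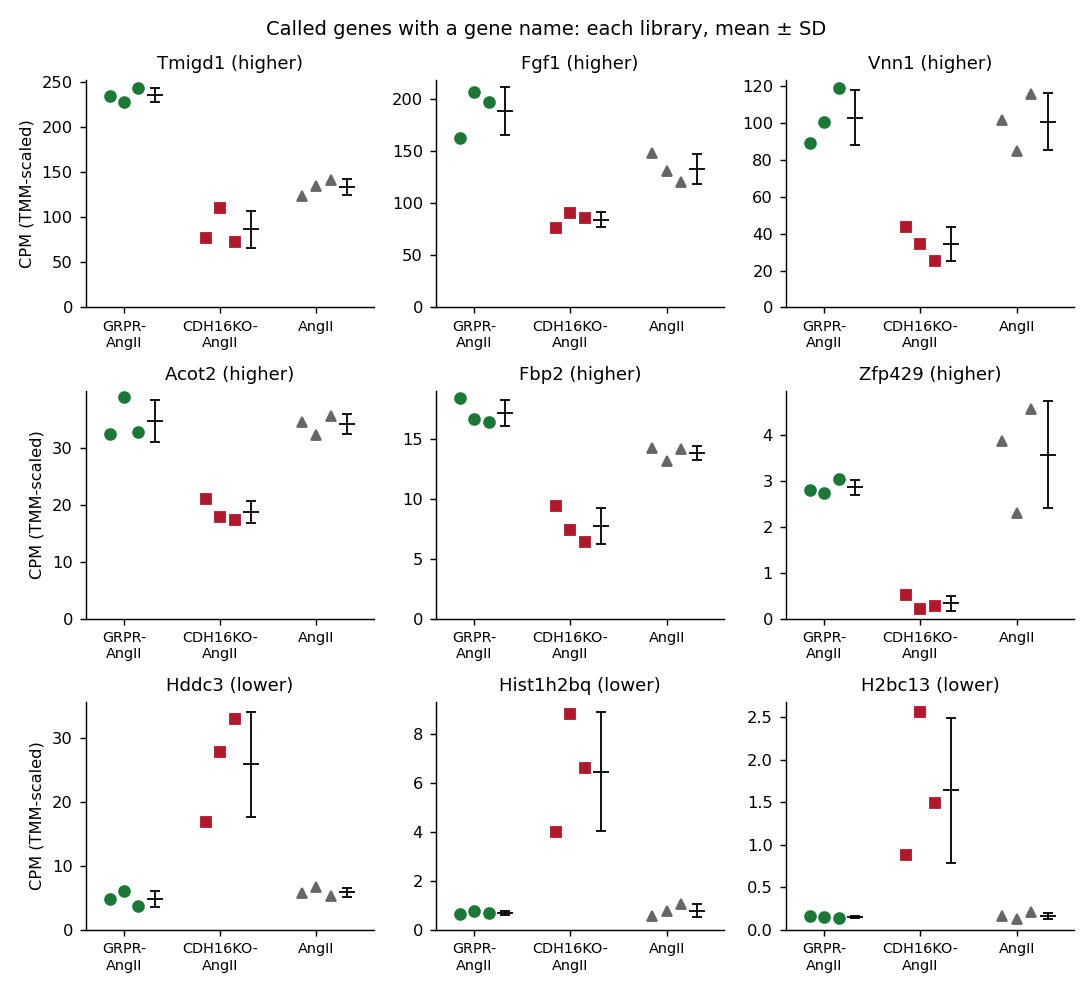
CPM of the 9 called genes with a gene name, 6 higher and 3 lower in GRPR-AngII, in each library (green circles GRPR-AngII, red squares CDH16KO-AngII, grey triangles AngII), with the mean ± SD of each group in black. In every panel the GRPR-AngII and CDH16KO-AngII libraries do not overlap, and AngII lies between them for Tmigd1, Fgf1 and Fbp2 and at the GRPR-AngII level for the other genes shown.

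Among the 11 genes lower in GRPR-AngII than in CDH16KO-AngII, Hddc3 and the histone genes Hist1h2bq and H2bc13 have gene names. Hddc3 (ENSMUSG00000030532, chr7:80343104-80350547 on the + strand) encodes MESH1, a phosphohydrolase that acts on NADPH. It was at 4.81, 6.11 and 3.64 CPM in GRPR-AngII, against 16.9, 27.8 and 33.0 CPM in CDH16KO-AngII. The CDH16KO-AngII libraries were spread over a wide range, all above every GRPR-AngII and AngII library (log2 fold change −2.41, SE 0.28, edgeR adjusted p = 0.0117). The AngII libraries were at 5.72, 6.66 and 5.22 CPM. Unc45a and Man2a2 overlap Hddc3 on the opposite strand. Its call was lost without GRPR-AngII library 1 (adjusted p = 0.0645), GRPR-AngII library 3 (0.055) or CDH16KO-AngII library 3 (0.0513).

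Histone H2B is a core protein of the nucleosome, and most of its genes lie in a cluster on chromosome 13. Replication-dependent histone mRNAs normally end in a stem-loop instead of a poly(A) tail. Hist1h2bq (ENSMUSG00000069307, chr13:21806612-21810197 on the − strand) was at 0.624, 0.772 and 0.675 CPM in GRPR-AngII, against 3.98, 8.83 and 6.62 CPM in CDH16KO-AngII (log2 fold change −3.22, SE 0.37, edgeR adjusted p = 0.0117). H2bc13 (ENSMUSG00000094338, chr13:21715763-21716143 on the − strand) was at 0.161, 0.145 and 0.135 CPM in GRPR-AngII, against 0.876, 2.56 and 1.49 CPM in CDH16KO-AngII (log2 fold change −3.46, SE 0.48, edgeR adjusted p = 0.0227). AngII stood with GRPR-AngII in both, at 0.552, 0.752 and 1.05 CPM for Hist1h2bq and 0.160, 0.132 and 0.205 CPM for H2bc13. Both lost their calls when any 1 of the GRPR-AngII libraries or CDH16KO-AngII library 3 was left out, with adjusted p of 0.0513 to 0.133. Near-identical copies limit both: 100% of the H2bc13 transcript is shared with Hist1h2bc and other H2B genes, and 99.4% of Hist1h2bq with Hist1h2br, so reads may come from another copy.

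Values of both signs were found among the histone genes. Of 62 replication-dependent histone genes in the table, 17 reached the filter, and edgeR called 2 of these lower and 0 higher. H2bc6, Hist1h2bq and H2bc13 reached an FPKM of 1 in CDH16KO-AngII libraries only, so the filter itself bears on the sign of such genes, and no median is given for the list. H2bc12 was at 0.845, 0.466 and 0.562 CPM in GRPR-AngII, against 2.29, 6.60 and 4.0006 CPM in CDH16KO-AngII, without a call (log2 fold change −2.78, edgeR adjusted p = 0.0688), and shares 81.7% of its transcript with Hist1h2bg. H2bc8, chosen after its values were seen, ran the other way without overlap, at 20.3, 23.2 and 20.8 CPM in GRPR-AngII against 14.1, 14.5 and 13.6 CPM in CDH16KO-AngII (log2 fold change 0.61, edgeR adjusted p = 0.17), and shares 70.6% with Hist1h2bp. Reads of both may belong to these and other H2B copies. The 250 bases before the annotated start of H2bc13, H2bc12 and H2bc8 are shown because H2bc13 was called lower, while H2bc12 and H2bc8 of the same cluster had values of opposite sign without a call. They are RefSeq sequences on GRCm38.p6, written 5′ to 3′ on the gene's strand, with each CCAAT, or ATTGG on the other strand, in capitals.
H2bc13 (chr13:21716184-21716433, − strand): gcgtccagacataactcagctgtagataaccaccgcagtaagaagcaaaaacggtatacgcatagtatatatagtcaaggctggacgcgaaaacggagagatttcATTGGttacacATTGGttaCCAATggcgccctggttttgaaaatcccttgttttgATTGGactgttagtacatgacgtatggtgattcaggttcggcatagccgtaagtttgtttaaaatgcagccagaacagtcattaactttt
H2bc12 (chr13:22035571-22035820, + strand): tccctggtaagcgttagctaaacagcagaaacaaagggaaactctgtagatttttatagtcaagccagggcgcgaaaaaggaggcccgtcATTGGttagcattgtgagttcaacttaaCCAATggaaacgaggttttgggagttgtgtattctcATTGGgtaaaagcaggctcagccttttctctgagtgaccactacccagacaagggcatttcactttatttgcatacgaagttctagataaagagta
H2bc8 (chr13:23571150-23571399, + strand): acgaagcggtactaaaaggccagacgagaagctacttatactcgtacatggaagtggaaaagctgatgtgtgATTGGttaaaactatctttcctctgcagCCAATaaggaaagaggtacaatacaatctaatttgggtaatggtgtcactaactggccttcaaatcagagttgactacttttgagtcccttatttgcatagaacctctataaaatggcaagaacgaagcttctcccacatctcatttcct

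The H2bc13 window held 4 CCAAT matches between 90 and 145 bases before the start, the H2bc12 window 3 between 96 and 160, and the H2bc8 window 2 between 150 and 178. Of 32851 windows of this length, 33.8% held at least 1 such match on either strand, 2.79% at least 3 and 0.84% at least 4. The octamer ATTTGCAT (either strand; it does not overlap these CCAAT matches) occurred once in the H2bc12 and H2bc8 windows, not in that of H2bc13, and in 1.6% of all windows. Of 15 genes looked up, 12 were in the promoter table, and the others were Fgf1, Vnn1 and Hist1h2bq. The nuclear receptor half-site AGGTCA (either strand) was not among the letters of the windows of Acot2, Acot1, Acox2, Ehhadh, Cpt2, Fbp2, Tmigd1, Hddc3 or Zfp429, and it occurred in 14.0% of all windows. These matches are descriptions of letters only.

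The other 8 genes lower in GRPR-AngII have predicted names only. They are 2 processed pseudogenes, 3 long intergenic non-coding genes and 3 genes whose transcripts are annotated as still to be checked. Their log2 fold changes lay between −3.59 and −1.61, and their group means were 0.416 to 7.23 CPM in GRPR-AngII, 3.52 to 84.8 CPM in CDH16KO-AngII and 0.492 to 6.17 CPM in AngII. The single values of Gm8730 and Gm42427 are given because they had the smallest p, a choice made after their values were seen. Gm8730 was at 8.19, 6.90 and 6.59 CPM in GRPR-AngII, against 133, 63.2 and 57.6 CPM in CDH16KO-AngII (log2 fold change −3.55, SE 0.34, edgeR adjusted p = 0.00444). Gm42427, near Gm42429 on chromosome 5, was at 2.53, 2.51 and 3.19 CPM in GRPR-AngII, against 11.0, 13.05 and 13.6 CPM in CDH16KO-AngII (log2 fold change −2.19, SE 0.20, edgeR adjusted p = 0.00444). Both calls were kept in 8 of the 9 fits with a library left out and lost without GRPR-AngII library 1 (adjusted p = 0.0502 for both). Gm6278 and Gm4316, with an adjusted p of 0.044 each, kept theirs in 0 and 1 of them. Gm42429, Gm42031, Gm43444 and Gm47469 lost theirs when any 1 of the GRPR-AngII libraries or CDH16KO-AngII library 3 was left out (adjusted p of 0.0513 to 0.15), and Gm42429 also without AngII library 2 (0.0594) or 3 (0.0502). All of Gm8730 is shared with Gm14165, and 99.6% of Gm6278 with Gm8730, so reads of these pseudogenes may belong to their copies. All of Gm42429 is shared with Gm10524 and other genes, 97.9% of Gm43444 with Glud1, 87.7% of Gm42031 with Gm43305 and 50.1% of Gm4316 with Gm42427, which leaves their counts uncertain too.

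Where fewer than 12 genes per direction were called, the naming rule went on to genes without a call, of which 5 with a positive sign are given here. Acox2, a peroxisomal oxidase of branched-chain fatty acids and of precursors of bile acids, was at 65.1, 77.5 and 74.6 CPM in GRPR-AngII, against 38.6, 29.4 and 25.2 CPM in CDH16KO-AngII (log2 fold change 1.22, SE 0.20, edgeR adjusted p = 0.051). Cyp4a12b, a fatty acid omega-hydroxylase of male mouse kidney, was at 14.6, 39.6 and 10.5 CPM in GRPR-AngII, against 1.79, 3.60 and 3.09 CPM in CDH16KO-AngII (log2 fold change 2.93, SE 0.47, edgeR adjusted p = 0.0522). All of its transcript is shared with Cyp4a12a, so the pair cannot be separated with certainty. Acox2 passed the threshold in 2 and Cyp4a12b in 1 of the 9 fits with a library left out.

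Angptl4, a secreted inhibitor of lipoprotein lipase and a classic PPAR target, was at 122, 65.8 and 88.3 CPM in GRPR-AngII, against 30.2, 13.6 and 17.2 CPM in CDH16KO-AngII (log2 fold change 2.18, SE 0.37, edgeR adjusted p = 0.0688). Cyp7b1, an oxysterol hydroxylase, was at 104, 136 and 161 CPM in GRPR-AngII, against 66.8, 39.4 and 40.6 CPM in CDH16KO-AngII (log2 fold change 1.45, SE 0.25, edgeR adjusted p = 0.0688). Azgp1, a secreted lipid-mobilising glycoprotein, had a log2 fold change of 1.86 (SE 0.32, edgeR adjusted p = 0.0711), with GRPR-AngII library 2 at 55.1 CPM and libraries 1 and 3 at 143 and 132 CPM, against 28.0 to 33.1 CPM in CDH16KO-AngII.

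Genes of fatty acid handling were mostly higher in GRPR-AngII, though few passed the threshold singly. In a list of 28 PPAR-responsive genes, 24 were tested, 2 were called higher (Vnn1 and Acot2) and 0 lower. A positive log2 fold change was found in 23 of the 24, against 47.4% of all genes tested, and their median was 0.75, against −0.01. An unadjusted p under 0.05 with a positive sign was found in 16, against 3.03% of all genes, and 12 had GRPR-AngII libraries all above CDH16KO-AngII libraries, against 4.66% of all genes. DESeq2 called 10 of the 24 higher and 0 lower, against 0.943% of all genes higher. Genes of such a list are not independent of each other and are not replicates.

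The enzymes of each oxidation route were counted in turn. For the counts of this and later lists, the shares over all genes tested were as follows. A positive sign was found in 47.4%, and an unadjusted p under 0.05 in 3.03% with a positive and 3.21% with a negative sign. DESeq2 called 0.943% higher and 0.456% lower. Of 29 peroxisomal genes tested, 0 were called, 24 had a positive log2 fold change and the median was 0.36. DESeq2 called 8 of them higher, and 13 had a positive sign with an unadjusted edgeR p under 0.05. Ehhadh, the bifunctional peroxisomal enzyme and a PPAR alpha target, was at 293, 542 and 337 CPM in GRPR-AngII, against 118, 204 and 77.7 CPM in CDH16KO-AngII (log2 fold change 1.55, SE 0.33, edgeR adjusted p = 0.146). Nudt7, a peroxisomal hydrolase of coenzyme A, had a log2 fold change of 0.80 (SE 0.18, edgeR adjusted p = 0.17). Of 24 mitochondrial beta-oxidation genes tested, edgeR called 0 and DESeq2 4, 20 had a positive log2 fold change, 9 of those had an unadjusted edgeR p under 0.05, and the median was 0.36. Cpt2, which hands fatty acids from carnitine back to coenzyme A inside mitochondria, was at 147, 148 and 165 CPM in GRPR-AngII, against 101, 90.3 and 76.6 CPM in CDH16KO-AngII (log2 fold change 0.78, SE 0.14, edgeR adjusted p = 0.0975). Acadl, the long-chain acyl-CoA dehydrogenase, had a log2 fold change of 0.59 and Slc25a20, the carnitine-acylcarnitine carrier, 0.61, with edgeR adjusted p of 0.177 and 0.263.

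Of 10 omega-hydroxylase genes tested, edgeR called 0 and DESeq2 called 4, 5 had a positive log2 fold change with an unadjusted edgeR p under 0.05, and the median was 0.68 (1.02 without CDH16KO-AngII library 2). Over the other settings that median ran from 0.22 to 1.02. The list was split, with 6 positive and 4 negative values. Cyp4a10 was at 306, 578 and 435 CPM in GRPR-AngII, against 215, 108 and 124 CPM in CDH16KO-AngII (log2 fold change 1.56, SE 0.33, edgeR adjusted p = 0.146), and shares 75.5% of its transcript with Cyp4a31. Of 13 acyl-CoA thioesterases tested, Acot2 was called and 10 had a positive log2 fold change. Acot1, its cytosolic neighbour, was at 48.3, 121 and 54.3 CPM in GRPR-AngII, against 21.2, 13.6 and 6.72 CPM in CDH16KO-AngII (log2 fold change 2.43, SE 0.43, edgeR adjusted p = 0.0805). Acot11, the thioesterase of brown fat, ran the other way, at 33.2, 34.4 and 32.9 CPM in GRPR-AngII against 48.1, 45.9 and 45.6 CPM in CDH16KO-AngII (log2 fold change −0.47, SE 0.11, edgeR adjusted p = 0.219).

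The regulators did not share the sign of the enzymes. Of 18 PPAR and partner regulators tested, edgeR called 0, with 2 at an unadjusted p under 0.05, both negative, and DESeq2 called 1, lower. A log2 fold change below 0 was found in 14, and the median was −0.18. Ppara, the gene of PPAR alpha itself and chosen after its values were seen, was at 4.71, 4.95 and 5.06 CPM in GRPR-AngII, against 3.93, 8.72 and 5.28 CPM in CDH16KO-AngII, with overlapping ranges (log2 fold change −0.28, SE 0.32, edgeR adjusted p = 0.998; 0.09 without CDH16KO-AngII library 2). Lpin1, a phosphatidate phosphatase and coactivator, had a log2 fold change of −0.46 (SE 0.18, edgeR adjusted p = 0.685). In a list of gluconeogenesis and fructose handling, Fbp2 alone was called among 18 tested, and the median was −0.04, or 0.18 without CDH16KO-AngII library 2. Pck1, which makes phosphoenolpyruvate from oxaloacetate, was at 1562, 635 and 1705 CPM in GRPR-AngII, against 1825, 3132 and 1940.4 CPM in CDH16KO-AngII (log2 fold change −0.82, SE 0.36, edgeR adjusted p = 0.764).

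**Figure D3:**
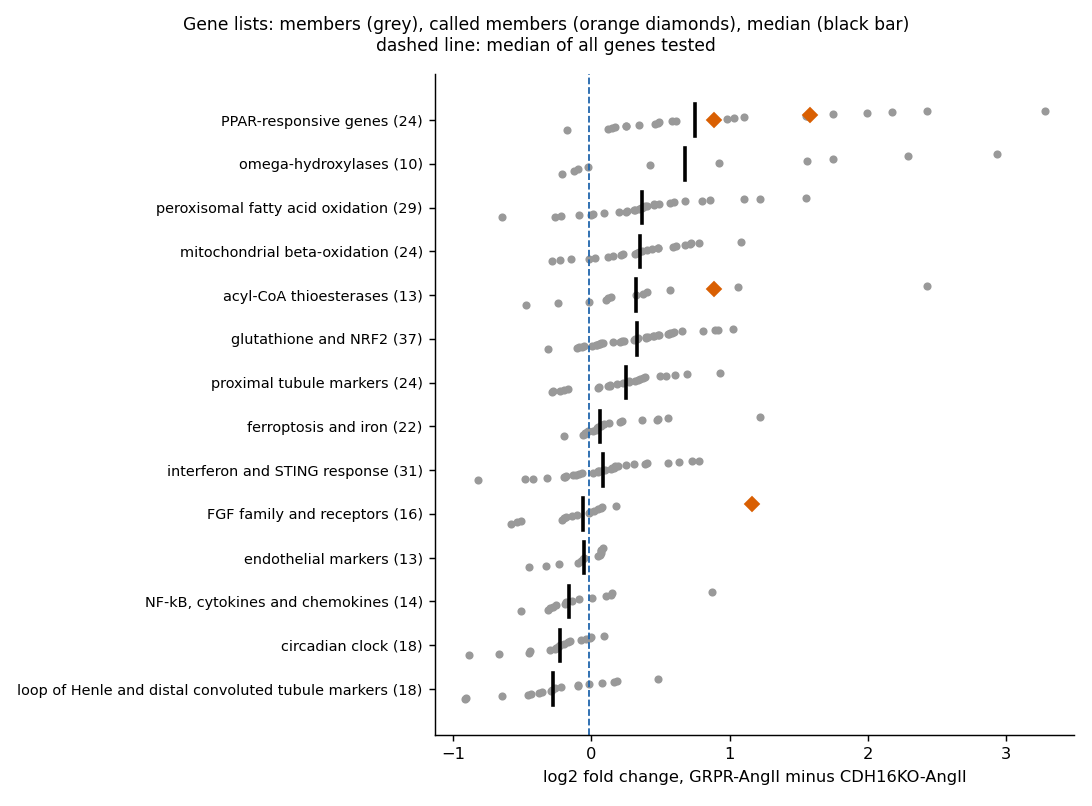
Log2 fold change of each tested member of 14 gene lists, GRPR-AngII minus CDH16KO-AngII, with the number tested in brackets. Grey points are members, orange diamonds members with an adjusted p under 0.05, black bars list medians and the dashed blue line the median of all genes tested (−0.01). The PPAR-responsive median stands at 0.75 and the loop of Henle and distal convoluted tubule median at −0.27.

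Many of the lipid enzymes are most abundant in the proximal tubule, so segment markers are given beside them. Of 24 proximal tubule markers tested, edgeR called 0 and DESeq2 1, higher, against 0.943% of all genes. An unadjusted p under 0.05 was found in 4, all positive, against 3.03% of all genes. A positive log2 fold change was found in 19, against 47.4% of all genes, and the median was 0.25. The mean log2 level over the markers was 9.02, 9.004 and 9.06 in GRPR-AngII, against 8.61, 9.13 and 8.60 in CDH16KO-AngII and 9.05, 9.02 and 8.85 in AngII. CDH16KO-AngII library 2 was above every GRPR-AngII library, so the groups overlapped. The mean log2 level over the PPAR-responsive genes was 6.16, 6.61 and 6.25 in GRPR-AngII, against 5.45, 5.53 and 5.10 in CDH16KO-AngII and 6.40, 6.33 and 6.49 in AngII. Here CDH16KO-AngII library 2 was below every GRPR-AngII library. Without that library the marker median was 0.48, the PPAR-responsive median 0.87, the peroxisomal median 0.53 and the mitochondrial beta-oxidation median 0.56. Over the other settings the marker median ran from 0.12 to 0.48 and the PPAR-responsive median from 0.54 to 0.88. The peroxisomal median ran from 0.25 to 0.53 and the mitochondrial beta-oxidation median from 0.26 to 0.56. The part of the segment markers in the lipid differences was not tested, and in these whole-kidney libraries fewer cells of a type and less RNA per cell cannot be told apart.

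Slc22a12, the urate transporter of the proximal tubule, was at 1558, 1761 and 1666 CPM in GRPR-AngII, against 898, 1305 and 877 CPM in CDH16KO-AngII (log2 fold change 0.69, SE 0.19, edgeR adjusted p = 0.282). Slc34a1, its phosphate transporter, had a log2 fold change of 0.50 (SE 0.20, edgeR adjusted p = 0.675). Of 18 markers of the loop of Henle and distal convoluted tubule, edgeR and DESeq2 called 0. An unadjusted p under 0.05 was found in 2, both negative, against 3.21% of all genes. A negative log2 fold change was found in 14, and the median was −0.27. Kcnj1, the potassium channel ROMK, was at 154, 153 and 131 CPM in GRPR-AngII, against 197, 171 and 201 CPM in CDH16KO-AngII (log2 fold change −0.38, SE 0.14, edgeR adjusted p = 0.655). Pvalb, a calcium-binding protein of the early distal convoluted tubule, had overlapping ranges, 20.0 to 28.9 CPM in GRPR-AngII against 23.3 to 66.3 CPM in CDH16KO-AngII. The median was 0.08 over 18 collecting duct markers, −0.003 over 10 podocyte markers and −0.06 over 13 endothelial markers (0.0006, 0.03 and −0.16 in the same order without CDH16KO-AngII library 2), with 0 called in each by edgeR and by DESeq2 and 0, 1 and 0 members at an unadjusted p under 0.05. Over 23 matrix and fibroblast genes it was 0.16 (0.03 without CDH16KO-AngII library 2), with 0 called by edgeR, 2 at an unadjusted p under 0.05 and 1 called lower by DESeq2. Col6a6, a collagen VI chain, was at 6.32, 15.6 and 11.9 CPM in GRPR-AngII, against 19.2, 27.3 and 35.8 CPM in CDH16KO-AngII (log2 fold change −1.28, SE 0.31, edgeR adjusted p = 0.229). Macrophage markers overlapped as a list, with a mean log2 level of 3.49 to 4.02 in GRPR-AngII and 3.18 to 3.92 in CDH16KO-AngII.

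**Figure D4:**
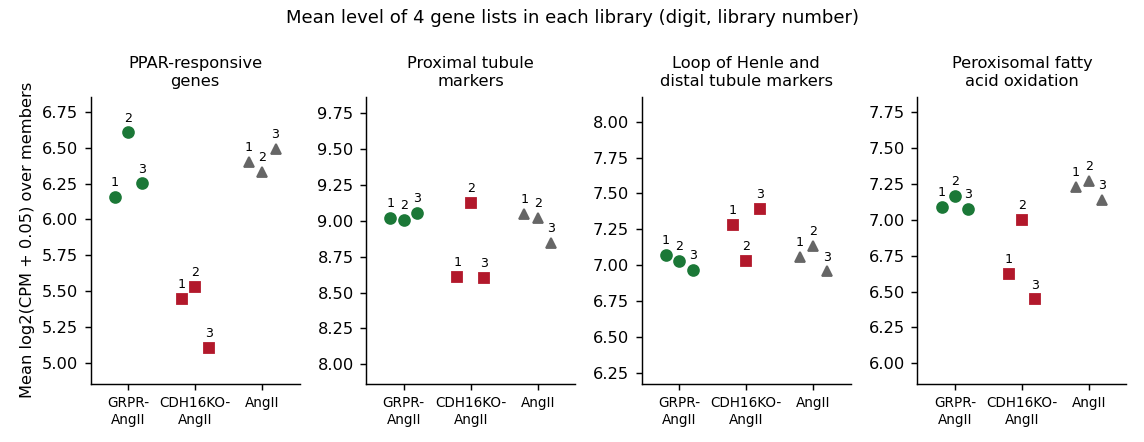
Mean of log2(CPM + 0.05) over the tested members of 4 lists in each library, with GRPR-AngII as green circles, CDH16KO-AngII as red squares and AngII as grey triangles and the library number beside each point; every panel spans the same height. CDH16KO-AngII lies below the other groups in the PPAR-responsive panel (5.10 to 5.53) and in the peroxisomal panel (6.45 to 7.002), and overlaps them in the proximal tubule panel, where CDH16KO-AngII library 2 is at 9.13.

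On the GRPR side, the receptor's partners gave little to separate the groups. Gnaq, the founding alpha subunit of the Gq family, averaged 21.9 ± 2.97 CPM in GRPR-AngII and 20.3 ± 0.476 CPM in CDH16KO-AngII (SD, n = 3 each; log2 fold change 0.11, edgeR adjusted p = 0.998). Plcb3, a phospholipase C downstream of Gq, was at 39.2, 39.0 and 40.3 CPM in GRPR-AngII, against 40.8, 41.1 and 54.3 CPM in CDH16KO-AngII (log2 fold change −0.20, SE 0.14, edgeR adjusted p = 0.954). Nmb, the related bombesin-like peptide neuromedin B, averaged 1.79 ± 0.318 CPM in GRPR-AngII and 1.68 ± 0.575 CPM in CDH16KO-AngII (SD, n = 3 each). Of 5 partners tested, edgeR and DESeq2 called 0, and 0 had an unadjusted p under 0.05.

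Of 16 FGF family and receptor genes tested, edgeR and DESeq2 called Fgf1 alone, and the median was −0.06. Fgfr4, the FGF receptor of chromosome 13, was at 48.8, 44.4 and 60.7 CPM in GRPR-AngII, against 67.3, 75.1 and 81.2 CPM in CDH16KO-AngII (log2 fold change −0.54, SE 0.14, edgeR adjusted p = 0.282). Fgf9, a ligand made by tubule epithelium, had overlapping ranges, 14.7 to 21.8 CPM in GRPR-AngII against 21.2 to 28.0 CPM in CDH16KO-AngII (edgeR adjusted p = 0.658). Fgfr3 was at 59.2, 61.1 and 62.8 CPM in GRPR-AngII, against 53.8, 55.2 and 52.8 CPM in CDH16KO-AngII (log2 fold change 0.18, SE 0.13, edgeR adjusted p = 0.969).

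Genes of the interferon response, which STING is known to induce, gave no edgeR call. In the interferon and STING list, 31 genes were tested and DESeq2 also called 0. An unadjusted p under 0.05 was found in 3, against 6.24% of all genes. The median was 0.09, or −0.09 without CDH16KO-AngII library 2. Rsad2, an antiviral enzyme induced by interferon, was at 23.0, 26.4 and 24.1 CPM in GRPR-AngII, against 16.8, 13.5 and 19.9 CPM in CDH16KO-AngII (log2 fold change 0.55, SE 0.17, edgeR adjusted p = 0.448). Ifi27, also interferon-induced, was at 46.3, 40.5 and 29.5 CPM in GRPR-AngII, against 102, 51.4 and 51.3 CPM in CDH16KO-AngII (log2 fold change −0.82, SE 0.27, edgeR adjusted p = 0.489). Among 14 genes of NF-kB, cytokines and chemokines, edgeR and DESeq2 called 0, 1 had an unadjusted p under 0.05 and the median was −0.16 (−0.24 without CDH16KO-AngII library 2).

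Of 37 glutathione and NRF2 genes tested, edgeR called 0 and DESeq2 2, both higher. A positive log2 fold change was found in 32, against 47.4% of all genes, and the median was 0.33. Of the 32, 10 had an unadjusted p under 0.05, against 3.03% of all genes. Nqo1, a quinone reductase and NRF2 target, was at 65.8, 56.0 and 66.4 CPM in GRPR-AngII, against 39.0, 30.5 and 22.9 CPM in CDH16KO-AngII (log2 fold change 1.03, SE 0.21, edgeR adjusted p = 0.135). Gstp1, a glutathione transferase that shares 86.1% of its transcript with Gstp2, had a log2 fold change of 0.81 (SE 0.20, edgeR adjusted p = 0.229). Of 22 ferroptosis and iron genes, edgeR and DESeq2 called 0, and the median was 0.06 (0.21 without CDH16KO-AngII library 2). An unadjusted p under 0.05 was found in 3, all positive, against 3.03% of all genes. Hmox1, heme oxygenase, was at 24.0, 78.8 and 29.0 CPM in GRPR-AngII, against 24.5, 20.2 and 11.96 CPM in CDH16KO-AngII, with GRPR-AngII library 2 far above the other 5 (log2 fold change 1.22, SE 0.41, edgeR adjusted p = 0.512). Among 18 circadian clock genes, the sign was negative in 17 and the median −0.23, with 1 at an unadjusted p under 0.05 and 0 called by edgeR and DESeq2. Usp2, a clock-controlled deubiquitinase, was at 59.5, 40.0 and 57.5 CPM in GRPR-AngII, against 75.5, 62.5 and 75.6 CPM in CDH16KO-AngII (log2 fold change −0.44, SE 0.17, edgeR adjusted p = 0.654). The sources used here do not give the times at which kidneys were taken.

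Y-linked and male-biased genes had values of both signs. Among 14 tested, 8 had a positive and 6 a negative log2 fold change, and edgeR called 0 and DESeq2 3, all higher. An unadjusted p under 0.05 was found in 3, all positive, against 3.03% of all genes. The median was 0.07 (0.61 without CDH16KO-AngII library 2). Cyp4a12a was at 48.3, 99.5 and 41.5 CPM in GRPR-AngII, against 7.20, 17.3 and 14.2 CPM in CDH16KO-AngII (log2 fold change 2.29, SE 0.44, edgeR adjusted p = 0.117). Cyp2d9, a steroid hydroxylase of male mice, was at 232, 156 and 277 CPM in GRPR-AngII, against 105, 72.9 and 88.5 CPM in CDH16KO-AngII (log2 fold change 1.32, SE 0.27, edgeR adjusted p = 0.135). The log2 fold change was −1.21 for Slc7a12, an amino acid transporter gene that stands in both sex-biased lists, −0.27 for Slc22a30 and −0.20 for Slco1a1. The Y-linked genes of the list stood at 0.11 (Kdm5d), 0.03 (Eif2s3y), −0.08 (Ddx3y) and −0.17 (Uty), without a call. Of 12 genes tested on the Y chromosome, 0 had an unadjusted edgeR p under 0.05. Of 8 female-biased genes tested, 6 were positive, with a median of 0.46, 0 called by edgeR and 1 called higher by DESeq2. An unadjusted p under 0.05 was found in 3, all positive, against 3.03% of all genes. Gstp2 of that list was at 71.6, 59.6 and 90.7 CPM in GRPR-AngII, against 40.97, 45.1 and 47.0 CPM in CDH16KO-AngII (log2 fold change 0.74, SE 0.18, edgeR adjusted p = 0.237).

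The lists of this paragraph held no edgeR call. Of 18 apolipoprotein and lipid uptake genes tested, edgeR called 0 and DESeq2 1, higher. An unadjusted p under 0.05 was found in 4, all positive, against 3.03% of all genes. The median was 0.17 (0.04 without CDH16KO-AngII library 2). Apoh, a plasma apolipoprotein made mainly by liver, was at 13.1, 6.74 and 11.8 CPM in GRPR-AngII, against 3.54, 5.39 and 3.98 CPM in CDH16KO-AngII (log2 fold change 1.29, SE 0.28, edgeR adjusted p = 0.152). Of 14 tubular injury and repair genes, edgeR called 0 and DESeq2 1, higher, and the median was −0.11. An unadjusted p under 0.05 was found in 2, both positive, against 3.03% of all genes. Fga, a fibrinogen chain that injured tubules make, was at 49.3, 26.3 and 16.0 CPM in GRPR-AngII, against 16.4, 10.7 and 6.36 CPM in CDH16KO-AngII, so the lowest GRPR-AngII library lay just under the highest CDH16KO-AngII library (log2 fold change 1.45, SE 0.42, edgeR adjusted p = 0.36). Of 15 glycolysis genes 7 had a positive sign, and of 17 genes of the unfolded protein and heat shock response 11 did, with 0 in each at an unadjusted p under 0.05 and 0 called by DESeq2. Over 6 erythroid genes the mean log2 level was 4.11, 7.44 and 6.95 in GRPR-AngII, against 6.06, 5.61 and 6.01 in CDH16KO-AngII, so GRPR-AngII libraries lay on both sides. The median of their log2 fold changes was 0.85 and ran from 0.07 to 1.38 over the other settings, with 0 at an unadjusted p under 0.05 and 0 called by DESeq2.

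The AngII libraries place the called genes against Cre-negative kidneys. Their range overlapped that of GRPR-AngII alone in 15 of the 18 called genes, that of CDH16KO-AngII alone in 0, and neither in 3 (Tmigd1, Fgf1 and Fbp2). Of the 11 lower in GRPR-AngII, 5 (Gm42427, Hist1h2bq, H2bc13, Gm47469 and Gm4316) reached an FPKM of 1 in CDH16KO-AngII libraries only, so for these the filter bears on where AngII lies. The contrasts of each group over AngII share the AngII libraries with each other, and each shares 1 group with the comparison described here, so the values are given side by side and not as separate evidence. The PPAR-responsive median log2 fold change was −0.05 in GRPR-AngII over AngII and −0.80 in CDH16KO-AngII over AngII. The glutathione and NRF2 medians were −0.05 and −0.37 in the same order. The circadian median was −0.25 in GRPR-AngII over AngII and 0.002 in CDH16KO-AngII over AngII. Between GRPR-AngII and AngII edgeR called 0 genes, with 843 (6.74%) at an unadjusted p under 0.05, and between CDH16KO-AngII and AngII it called 21 (0.168%), with 8.45% at an unadjusted p under 0.05. Of the 18 genes called in the comparison described here, 14 were among those 21.

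Differences were unevenly spread over chromosomes. On chromosome 13, 66 of 459 genes tested had an unadjusted p under 0.05 (14.4%), against 6.24% of all genes, and 6 of the 18 calls were there. Of those 6, Hist1h2bq, H2bc13 and Gm47469 reached an FPKM of 1 in CDH16KO-AngII libraries only, so the filter bears on their sign. Hist1h2bq and H2bc13 also share sequence with other H2B genes. On chromosome 18 the share was 34 of 307 (11.1%), and on the other 17 autosomes it was 4.52% to 7.37%. The signs were mixed, with 37 higher and 29 lower on chromosome 13 and 17 each way on chromosome 18. Between 60 and 80 Mb of chromosome 13 the share was 17 of 73 (23.3%), with 4 of the 6 calls (Fbp2, 1810034E14Rik, Zfp429 and Gm47469). In the other segments of 20 Mb up to 120 Mb it was 9.48% to 16.0%. In the contrasts that share these libraries the shares were 6.75% for GRPR-AngII against AngII and 17.6% for CDH16KO-AngII against AngII on chromosome 13, and 8.79% and 14.3% on chromosome 18. The sources used here do not give the genetic background of the mice, and its part was not tested.

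**Figure D5:**
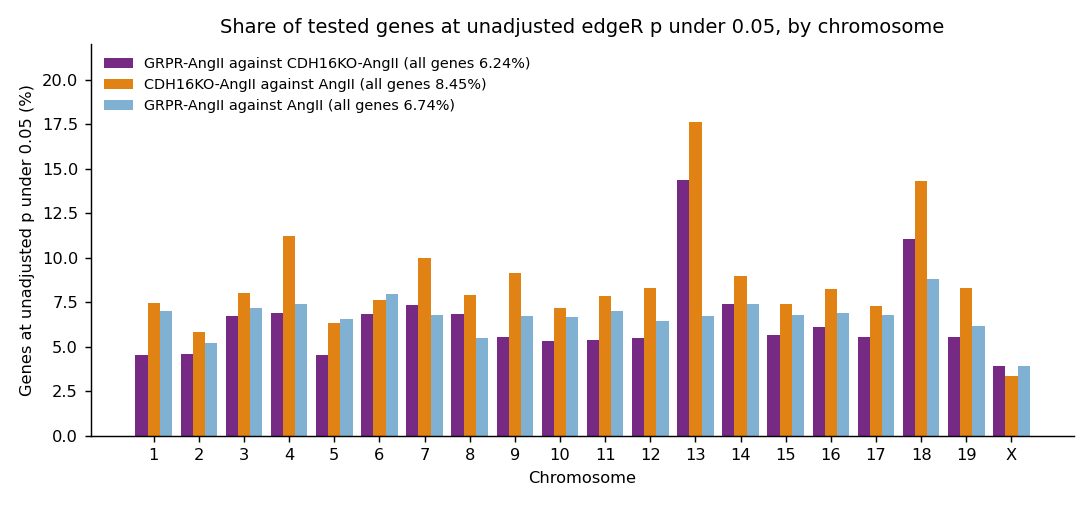
Percent of tested genes with an unadjusted edgeR p under 0.05 on each autosome and the X chromosome, for GRPR-AngII against CDH16KO-AngII (purple), CDH16KO-AngII against AngII (orange) and GRPR-AngII against AngII (blue), which share libraries. Chromosomes 13 and 18 stand at 14.4% and 11.1% in the first, where all genes together stand at 6.24%.

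Genes on these chromosomes, chosen after their values were seen, differed among libraries of 1 group as well as between groups. Rps3a3, a ribosomal protein pseudogene inside Pde4d at 109 Mb of chromosome 13, was at 1.03, 1.61 and 0.922 CPM in GRPR-AngII, against 0.762, 83.6 and 79.6 CPM in CDH16KO-AngII. CDH16KO-AngII library 1 was thus at the GRPR-AngII level, and the gene was not called (log2 fold change −5.51, SE 1.19, edgeR adjusted p = 0.153). All of Rps3a3 is shared with Gm5586 and other genes. Ccl28, a mucosal chemokine at 120 Mb, was at 3.52, 1.98 and 2.81 CPM in GRPR-AngII, against 5.13, 28.1 and 16.6 CPM in CDH16KO-AngII (log2 fold change −2.59, SE 0.56, edgeR adjusted p = 0.157). Nnt, the mitochondrial transhydrogenase at 119 Mb, has 2 annotated models in the table, and the second took 0%, 19.8% and 0% of their summed counts in GRPR-AngII, 34.1%, 44.0% and 0% in CDH16KO-AngII and 93.5%, 95.8% and 0% in AngII. Libraries of every group therefore differed at this gene. On chromosome 18, Riok3, an atypical kinase, was at 60.2, 71.0 and 62.4 CPM in GRPR-AngII, against 103, 111 and 103 CPM in CDH16KO-AngII (log2 fold change −0.71, SE 0.14, edgeR adjusted p = 0.118). Proc, the gene of the anticoagulant protein C, was at 239, 188 and 289 CPM in GRPR-AngII, against 111, 136 and 143 CPM in CDH16KO-AngII (log2 fold change 0.88, SE 0.18, edgeR adjusted p = 0.135).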

How the data were processed

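Kidney RNA in 9 samples was extracted with an RNeasy kit and made into libraries with a SMARTER mRNA-Seq kit, per the labels' protocols. The deposited table holds FPKM and counts for each library and gene, per the file headers. Its builds are GRCm38 and mm10, per the submitters' processing notes, and the sources used here name no aligner, counting program or strand setting. The whole-number counts deposited by the authors were read as rounded expected counts, since 4 was a more frequent value than 3 and 5 in all libraries. FPKM, also deposited by the authors, served for the filter and for the limma alternatives.

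Samples were grouped by title. edgeR 4.0.16 in R 4.3.3 (quasi-likelihood test, TMM scaling, 1 coefficient per group, no block) was fitted to all 9 libraries for the genes that reached an FPKM of 1 in 3 or more libraries, and p-values were adjusted by Benjamini-Hochberg over all 12507 genes. CPM values are counts per 1000000 after TMM scaling. List levels are means of log2(CPM + 0.05). Genes below the filter came from a fit with an FPKM of at least 0.1. Replicates of a group differed far beyond sampling noise (chi-square per gene of at least 74.2), so none was counted as a copy. The fit was also run on simulated counts, and the outcome is not reported here. In that simulation no library stood apart, so it does not bear on how the calls depend on single libraries. Shared sequence means at least 95% identity over at least 50% of the longest transcript in GENCODE M21 (BLAST+ 2.17.0). Figures were drawn with matplotlib 3.10.9.

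Named were the genes in the labels and title, the called genes, genes of smallest p without a call up to 12 per direction (ranges apart, mean FPKM of at least 2 in 1 group, no predicted name), and up to 3 members of smallest p of each list described. Some genes the rule takes are not reported here. The comparison, the 35 gene lists and the rule were chosen with earlier results of these data known, and the lists are described and not tested. Alternatives were other filters, scalings, limma 3.58.1 on log2(FPKM + 0.1) and log2(FPKM + 1), DESeq2 1.42.0, the 6 compared libraries alone, a replicate block and leaving out each library.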

Additional observations from a re-analysis of the deposited data

How the results depend on the processing

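Across 21 other settings, none of the 18 called genes changed direction. Of the 18 genes called, 7 higher and 11 lower, the count was 15 to 20 with other scalings, the filterByExpr filter, an FPKM filter of 0.1, limma or the mitochondria-coded genes left out. With no filter on low values it was 41 (22 higher and 19 lower), with DESeq2 175 (118 higher and 57 lower), and with the 6 compared libraries alone 9 (2 higher and 7 lower). With 1 library left out it lay between 0 and 50, with 0 to 28 higher and 0 to 22 lower. The cause of these shifts was not tested. With a replicate block edgeR called 13 genes (8 higher and 5 lower), 10 of them among the 18. The block left 1051 genes at an unadjusted p under 0.05, against 780 in the fit as reported. The replicate numbers were not taken to pair the samples: deviations of same-numbered GRPR-AngII and CDH16KO-AngII libraries correlated at 0.0919, 0.198 and 0.185 over genes, and not every value passed 0.1, although each library correlated best with its own number. Among the named genes without a call, 3 turned sign when a library was left out. The log2 fold change then ran from −0.10 to 0.24 for Acsl4, with values of −0.07 and −0.002 besides, from −0.054 to 0.41 for Nmb, and from −0.51 to 0.093 for Ppara. The PPAR-responsive median stayed between 0.54 and 0.88. The share of chromosome 13 genes at an unadjusted p under 0.05 ran from 8.04% with no filter to 20.7% without CDH16KO-AngII library 2. Over the settings it was 1.598 to 2.48 times that of all genes. The share of chromosome 18 genes ran from 8.88% to 15.6%, which was 1.21 to 2.02 times that of all genes. Genes under about 1 CPM rest on few counts, and 3 libraries per group limit every test.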
